A study of Rattus norvegicus with 9 samples.

Results

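The comparison is between small RNA of exosomes from rat peritoneal macrophages given lipopolysaccharide (LPS) and from macrophages given vehicle. Its members were taken by their titles, 3 LPS libraries and 3 Control libraries, 6 of the 9 libraries in the series. The cells came from untreated rat by lavage of the peritoneum and were cultured in medium with fetal bovine serum. Control cultures received dimethyl sulfoxide (DMSO) at 0.1% for 24 h. LPS cultures received LPS at 100 ng/ml for 6 h, from a 1000-fold stock that was itself made in DMSO. A 24 h exposure to DMSO is listed for Control alone, so LPS and the time in DMSO cannot be told apart. The remaining 3 libraries, which had astragaloside IV before LPS, are not compared here. They entered the choice of tag names, the filter on low counts, the scaling factors and the estimate of the spread. The labels do not say whether libraries of 1 group came from separate rats or cultures, so each p-value measures the spread between these libraries, which may be technical.

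Exosomes are small membrane vesicles that cells release, and their RNA is mostly short pieces of tRNA and rRNA with a small fraction of microRNA (miRNA). A miRNA is cut from a hairpin precursor and directs silencing of messenger RNAs that pair with its seed, bases 2 to 8 from the 5′ end. LPS, a component of the outer membrane of Gram-negative bacteria, acts on macrophages through Toll-like receptor 4, and miR-155 and miR-146a are the textbook miRNAs induced by that pathway. The serum in culture medium also carries vesicles with RNA of its own.

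The tag sequences below carry the results that follow. Each is a tag as sequenced, in DNA letters, with the seed in capitals, and each of these 8 equals the RefSeq mature miRNA of that name (genome build GRCr8). miR-181a-5p and miR-181c-5p share a seed and are shown first because the former was among the most abundant miRNAs in both groups and the latter had no reads in LPS.
miR-181a-5p: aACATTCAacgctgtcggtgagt
miR-181c-5p: aACATTCAacctgtcggtgagt
miR-127-3p: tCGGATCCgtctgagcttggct
miR-126a-3p: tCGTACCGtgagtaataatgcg
miR-128-3p: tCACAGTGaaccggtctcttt
miR-122-5p: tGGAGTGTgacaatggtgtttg
miR-34a-5p: tGGCAGTGtcttagctggttgt
miR-204-5p: tTCCCTTTgtcatcctatgcct
In GRCr8, RefSeq places mature miR-127-3p at chr6:134328510-134328531 on the plus strand, miR-126a-3p at chr3:29813219-29813240 (plus), miR-122-5p at chr18:61028831-61028852 (plus), miR-34a-5p at chr5:165815971-165815992 (plus) and miR-204-5p at chr1:229743493-229743514 (plus), each within a miRNA gene. miR-423-3p and miR-30b-5p have results below but no matched RefSeq entry of that name.

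The 6 libraries held 3484099 to 9305041 assigned reads, of which 25657 to 75858 were mature miRNA. Between 95 and 121 mature miRNA names were seen per library. A tag is 1 distinct sequence of 15 to 45 nt with its read count, and each was given 1 name over all libraries, the name with most reads. Of the distinct tags of the 6 libraries, 83.9% occurred in 1 library and carried 10.1% of reads, while the 0.691% found in all 6 carried 70.5%. Macrophage and myeloid markers were few under mature names. Of 7 such miRNAs 4 had mature-named reads, and miR-142-3p and both arms of miR-511 had none. Hairpin-named reads of the latter were not looked up. miR-142-5p had 54, 0 and 1 Control reads against 0, 0 and 47 LPS reads. The summed level of this list was 18203 to 40916 CPM in Control against 12604 to 42471 CPM with LPS, where CPM is the usual library-scaled count, taken here over mature miRNA reads with TMM factors.

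tRNA and rRNA pieces made up most of every library other than LPS 3, and no RNA class separated the groups. tRNA held 62.9%, 45.3% and 37.8% of assigned reads in Control 1 to 3 and 60.5%, 29.7% and 12.9% in LPS 1 to 3. rRNA held 28.3%, 42.8% and 51.6% in Control and 32.3%, 54.5% and 37.1% in LPS. The groups overlapped in both classes. Mature miRNA held 0.583%, 0.570% and 0.923% in Control and 0.276%, 1.88% and 0.691% in LPS, so LPS held both the lowest and the highest library. Tags named as a miRNA hairpin followed the same order, with a mean of 0.551% ± 0.137 in Control and 0.735% ± 0.629 in LPS (SD, n = 3 each). Of the 6 classes tested by a two-sided exact permutation test, all had an adjusted p of 1, and 3 libraries against 3 cannot give an unadjusted p below 0.1.

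LPS 3 stood apart from the other 5 libraries in which tRNA pieces it held. Tags named as piRNA, a class of small RNA that guards the germline genome, held 2.065%, 3.598% and 2.40% of Control reads. The share was 2.43% for LPS 1, 3.12% for LPS 2 and 43.5% for LPS 3. The LPS mean was 16.3% with LPS 3 and 2.77% without it, against 2.69% ± 0.805 in Control (SD, n = 3). Most of these reads began with the first 20 bases of some tag that was named tRNA in the same files, 92.3%, 80.3% and 91.7% in Control and 86.2%, 58.4% and 93.2% in LPS. tRNA-named and piRNA-named reads together came to 65.0%, 48.9% and 40.2% in Control and 62.9%, 32.8% and 56.4% in LPS, where LPS 3 lay among the others. The most-read tag of piR_005901, 1 of the piRNA names with most reads, is shown because it begins like a tag named tRNA.
piR_005901: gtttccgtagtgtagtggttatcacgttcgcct
This tag had 15397, 12302 and 15100 Control reads, then 18372 for LPS 1, 4100 for LPS 2 and 326739 for LPS 3.

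**Figure D1:**
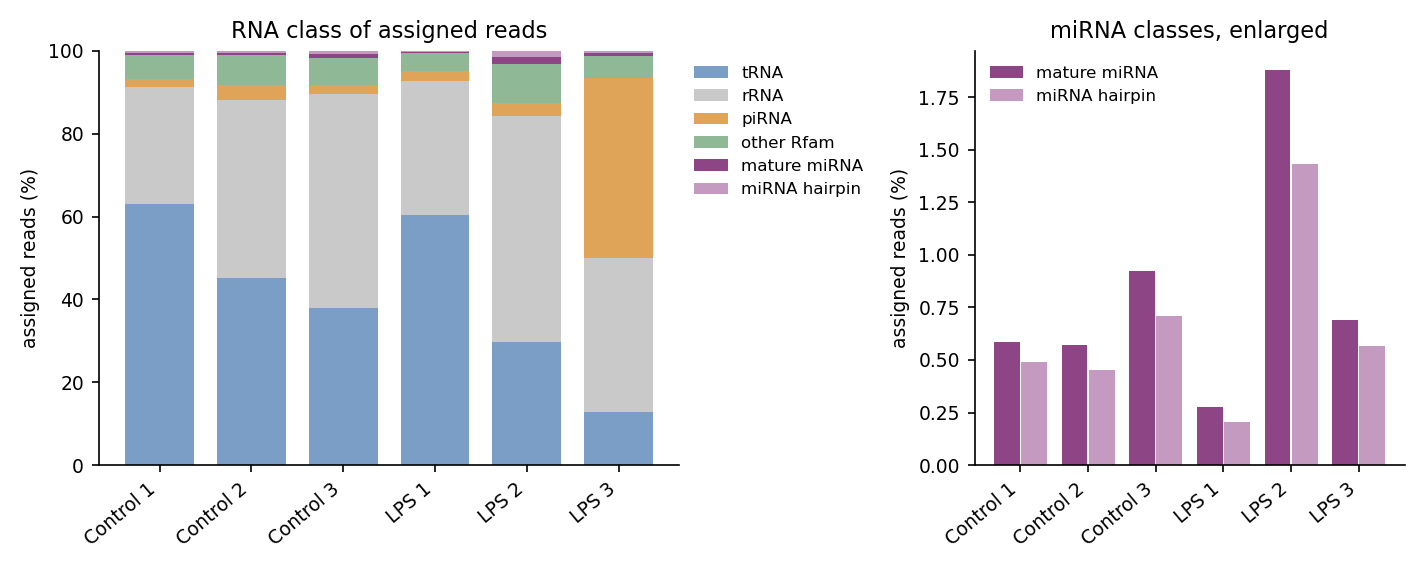
Share of assigned reads by RNA class in each of the 6 libraries as stacked bars (left, percent), and the mature miRNA and miRNA hairpin classes alone on an enlarged axis (right, percent). The piRNA-named block reaches 43.5% in LPS 3 and at most 3.598% in the other libraries, and LPS 2 has the largest miRNA share.

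Other RNA of LPS 3 also differed from the rest. The 2 tRNA-named tags with most reads gave 53.5%, 55.04% and 41.6% of Control tRNA reads, and 52.1%, 43.3% and 0.211% of those of LPS 1, 2 and 3. Tags named by models of bacterial large and small subunit rRNA held 15.3%, 17.5% and 18.98% of assigned reads in Control and 17.9%, 31.97% and 4.91% in LPS. Which organism these tags came from was not tested, and their sequences are not shown. Some tags named 5.8S rRNA lay whole within a tag named by the bacterial large subunit model. They held 42.2%, 50.8% and 79.1% of 5.8S reads in Control and 62.3%, 71.4% and 0.923% in LPS. 5S rRNA, the small RNA of the large ribosomal subunit, held 0.0881%, 0.132% and 0.137% in Control and 0.170%, 0.152% and 0.283% in LPS. Every LPS library thus lay above every Control library for 5S rRNA as a share of reads, though not in CPM of the named small RNAs (log2 fold change 0.94, SE 0.78).

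Tag lengths overlapped between the groups in each of 6 length ranges (adjusted p of 1 in all 6, exact permutation test). Tags of 33 to 38 nt, the size of long tRNA pieces, held 72.7%, 61.8% and 48.7% of reads in Control and 74.7%, 57.6% and 53.2% in LPS. Tags of 20 to 24 nt, the size of miRNAs, held 4.44%, 4.70% and 17.3% in Control and 4.38%, 8.40% and 6.14% in LPS. The 17.3% of Control 3 lay well above the other 5 libraries. There, 1 tag of 24 nt named 5.8S rRNA had 889583 reads, against 208189 in LPS 1, 562 in LPS 3 and 0 in the other 3. The modal length was 34 nt in each Control library and LPS 1, 37 nt in LPS 2 and 33 nt in LPS 3. Within tRNA-named reads, 28 to 32 nt made up 4.28% to 10.6% in Control, 4.44% for LPS 1, 5.70% for LPS 2 and 19.9% for LPS 3.

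**Figure D2:**
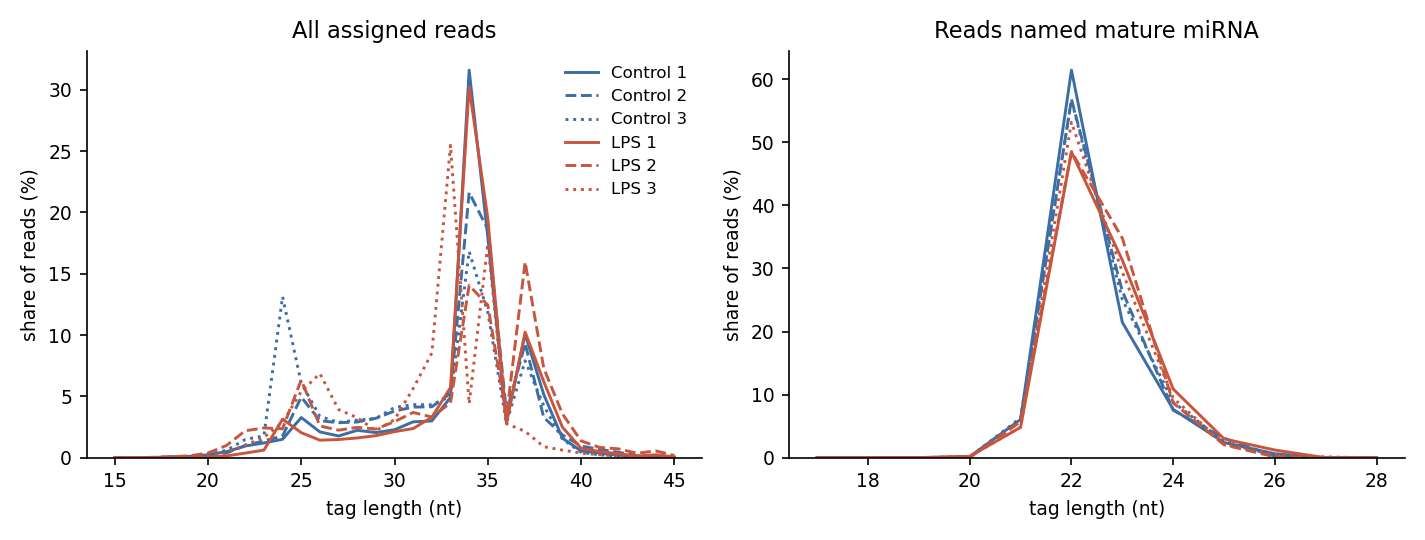
Tag length in nt against the share of reads in percent, for all assigned reads (left) and for reads named mature miRNA (right), with 1 line per library. In the left panel LPS 3 peaks at 33 nt where the Control libraries and LPS 1 peak at 34 nt, and Control 3 has a separate peak at 24 nt; in the right panel the 3 LPS lines are below the 3 Control lines at 22 nt and above them at 23 nt.

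No miRNA passed the threshold between LPS and Control. Of 188 mature names with reads in the 6 libraries, 94 passed the filter on low counts and 0 (0.0%) had an adjusted p under 0.05 by edgeR's quasi-likelihood test. At an unadjusted p under 0.05 there were 6 by edgeR and 8 by DESeq2, and DESeq2 also gave 0 adjusted calls. The 3 LPS libraries lay above the 3 Control libraries in CPM for 8 of the 94 (8.51%) and below them for 10 (10.6%). The spread was wide, with a square root of the common dispersion of 1.402, and 44 of the 94 had no reads in at least 1 of the 6 libraries. Among the 10 miRNAs most abundant in Control, the median coefficient of variation was 16.8% in Control and 19.6% in LPS, against 47.9% and 86.6% over all 94.

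**Figure D3:**
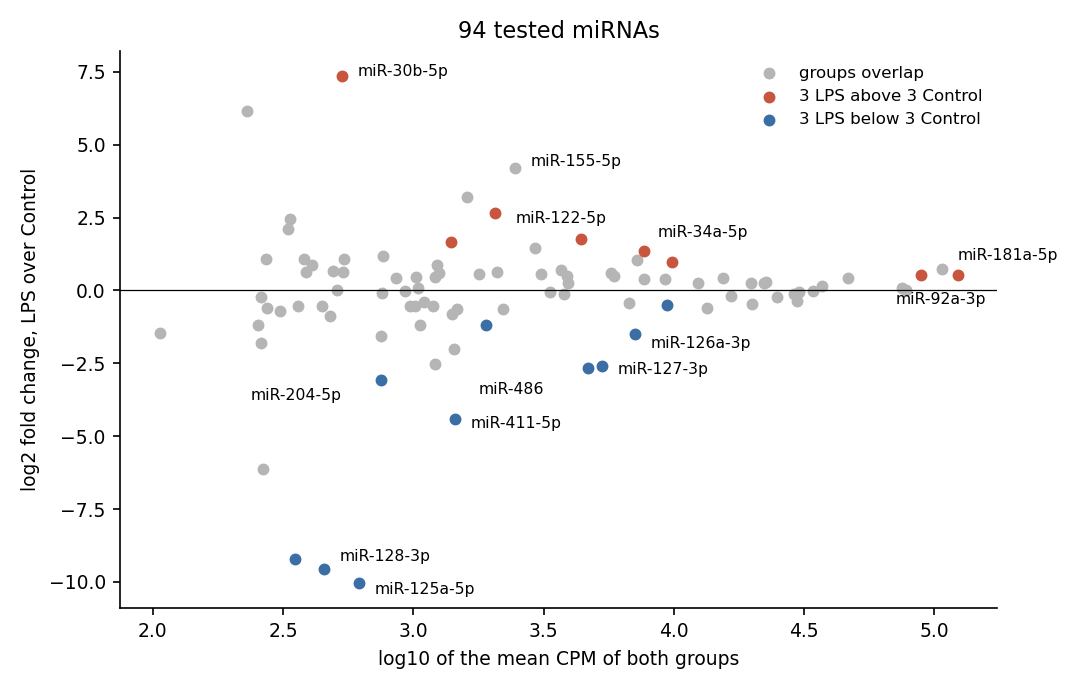
The 94 tested miRNAs by mean level (log10 of CPM, horizontal axis) and log2 fold change of LPS over Control (vertical axis), with 1 point per miRNA. Coloured points are the 8 whose LPS libraries all lay above and the 10 whose LPS libraries all lay below Control; the largest fold changes belong to miRNAs of low level.

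The abundant miRNAs were largely shared by both groups. The leading 10 of Control took 56.6% to 67.5% of mature reads in each of the 6 libraries, and 9 of them were also among the 10 most abundant in LPS. miR-181a-5p, which tunes antigen receptor signalling in lymphocytes, had 83750, 111532 and 105956 CPM in Control against 133703, 159955 and 141338 CPM with LPS. Its log2 fold change was 0.53 (SE 0.28, adjusted p = 0.663 by edgeR). On this scale the groups did not overlap, but as a share of mature reads they did, at 9.53%, 12.01% and 10.5% in Control and 11.7%, 14.0% and 14.1% in LPS. miR-92a-3p, a member of the miR-17-92 cluster abundant in blood, held 7.14%, 7.84% and 8.11% in Control and 11.3%, 8.84% and 8.60% in LPS, every LPS library above every Control library. miR-423-3p, common in blood and its vesicles, had the smallest unadjusted p of the higher miRNAs, at 69757, 81982 and 88365 CPM in Control against 151994, 165600 and 85522 CPM with LPS (log2 0.75, SE 0.30, edgeR adjusted p = 0.663). LPS 3 lay within the Control range for it. let-7a-5p and let-7b-5p, of the let-7 family of growth-restraining miRNAs, averaged 77544 ± 15362 and 73330 ± 11051 CPM in Control and 77862 ± 2235 and 77188 ± 19099 CPM in LPS (SD, n = 3 each).

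Of the less abundant miRNAs, several lay above Control in CPM in every LPS library. miR-122-5p, the main miRNA of hepatocytes and one found in serum, had 150, 48 and 108 Control reads against 245, 208 and 357 LPS reads. In CPM this was 2000 ± 977 against 6797 ± 3740 (SD, n = 3 each), a log2 fold change of 1.76 (SE 0.83, edgeR adjusted p = 0.663). As a share of mature reads its groups overlapped, at 0.356%, 0.155% and 0.142% in Control and 0.955%, 0.318% and 0.578% in LPS. miR-34a-5p, a target of p53, had 153, 201 and 292 Control reads against 285, 398 and 827 LPS reads (log2 1.34, SE 0.76, edgeR adjusted p = 0.666). It too overlapped between groups as a share of mature reads. miR-222-3p, which shares its cluster with miR-221, had 393, 125 and 590 reads against 293, 888 and 655 (log2 0.99, SE 0.60, edgeR adjusted p = 0.666). miR-100-5p, of the miR-99 and miR-100 family, stood at 672 ± 373 CPM in Control against 2125 ± 390 CPM with LPS, while its relative miR-99a-5p stood at 10976 ± 2141 and 7764 ± 1028 CPM (SD, n = 3 each). These relatives thus lay in opposite directions, each with no overlap between groups and with unadjusted p of 0.457 and 0.425 by edgeR. miR-30b-5p had 0, 0 and 1 Control reads against 16, 49 and 99 LPS reads (log2 7.35, SE 3.602). By the first 18 bases, a start it shares with miR-30c-5p, there were 70, 26 and 2 against 74, 102 and 128, and the log2 fold change was 1.52 (SE 1.92).

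Lower in every LPS library than in any Control library were several miRNAs outside the myeloid set. miR-127-3p, of the imprinted Dlk1-Dio3 miRNA cluster, had 552, 247 and 630 Control reads against 31, 95 and 93 LPS reads. Its level was 9094 ± 2152 CPM in Control against 1521 ± 141 CPM with LPS (SD, n = 3 each). The fit gave a log2 fold change of -2.58 (SE 1.24, edgeR adjusted p = 0.663), and over the alternatives the adjusted p ranged from 0.0542, with the 6 libraries fitted alone, to 0.991. miR-126a-3p, the endothelial miRNA of the Egfl7 gene, had 584, 230 and 921 Control reads against 93, 310 and 98 LPS reads (log2 -1.49, SE 0.68, edgeR adjusted p = 0.663). miR-486, an erythroid miRNA, had 287, 336 and 610 Control reads against 83, 8 and 0 LPS reads (log2 -2.67, SE 1.69, edgeR adjusted p = 0.679). It passed without LPS 1, at a log2 fold change of -6.87 with an adjusted p of 0.000236 by edgeR, a value that rests on the 8 and 0 mature-named reads of LPS 2 and 3. By the first 18 bases LPS 1 to 3 had 85, 185 and 25 reads, with a log2 fold change of -2.51 (SE 1.45, edgeR adjusted p = 0.729). miR-204-5p, the miRNA in the series title, had 75, 54 and 63 Control reads against 3, 1 and 20 LPS reads (log2 -3.06, SE 2.23, edgeR adjusted p = 0.873). miR-411-5p, also of the Dlk1-Dio3 cluster, had 107, 62 and 315 reads against 9, 0 and 0.

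Of the lower miRNAs, 3 had no mature-named reads in LPS. Their fitted fold change thus depends on a prior count, and only a bound on those mature-named reads is given. miR-128-3p, enriched in neurons, had 34, 39 and 64 reads in Control and was at least 11.6-fold lower in LPS, taking 3 reads per library as the most that a count of 0 allows. miR-125a-5p had 1, 82 and 94 reads and was at least 15.8-fold lower (8.11-fold without Control 2). miR-181c-5p had 76, 17 and 1 reads and was at least 8.95-fold lower, or 3.33-fold without Control 1, with Control 3 at a single read. None of these bounds carries a test that passed (edgeR adjusted p = 0.663 for each).

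Many miRNA reads sat under hairpin names, and some comparisons depended on them. Of the reads in tags named mature miRNA or miRNA hairpin, 54.3% to 57.1% per library were named mature. Of hairpin-named reads in the 6 libraries, 53.4% were a RefSeq mature sequence with extra bases at the 3′ end, 22.01% were one that ended early, and 6.40% differed by 1 base. miR-21-5p, an abundant miRNA of activated macrophages, shows this best, with its mature tag, its main longer tag and a shorter tag.
miR-21-5p mature: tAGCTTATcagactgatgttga
miR-21-5p longer: tAGCTTATcagactgatgttgac
miR-21-5p shorter: tAGCTTATcagactgatgttg
The mature tag had 119, 82 and 231 Control reads against 5, 3 and 297 LPS reads, whereas the longer tag had 2372, 1348 and 3539 in Control against 1262, 1727 and 4221 with LPS. The longer tag thus outnumbered the mature one in all 6 libraries. Under mature names the log2 fold change was -0.64 (SE 1.47). Summed over every tag with the same first 18 bases it was 0.00 (SE 0.40), with 4.57% of those reads named mature.

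miR-125a-5p, which belongs to the miR-99b cluster and is known for LPS responsiveness, turned direction when its shorter tag was counted. Its sequences are shown in the same way.
miR-125a-5p mature: tCCCTGAGaccctttaacctgtga
miR-125a-5p shorter: tCCCTGAGaccctttaacctgt
The mature tag had 1, 82 and 94 Control reads against 0, 0 and 0 LPS reads. The shorter tag, 2 bases short of it, had 2, 52 and 34 in Control against 127, 104 and 130 with LPS. All tags with this start came to 5, 200 and 198 Control reads against 152, 104 and 280 LPS reads, a log2 fold change of 0.44 (SE 1.08) in place of -10.02. The groups overlapped in that sum.

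miR-155-5p, the best known LPS-induced miRNA of macrophages, was high in 2 of the 3 LPS libraries. Its mature reads were 0, 26 and 0 in Control against 227, 2 and 234 with LPS (log2 4.18, SE 2.31, edgeR adjusted p = 0.663). Over all tags with its start there were 80, 137 and 103 Control reads against 413, 99 and 413 LPS reads (log2 1.72, SE 1.58, edgeR adjusted p = 0.982). LPS 2 lay within the Control range in both counts. miR-17-5p, of the miR-17-92 cluster, was too sparse under its mature name to test, with 37, 1 and 0 reads in Control. By its start it had 110, 69 and 64 reads in Control and none in any LPS library (edgeR adjusted p = 0.592).

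**Figure D4:**
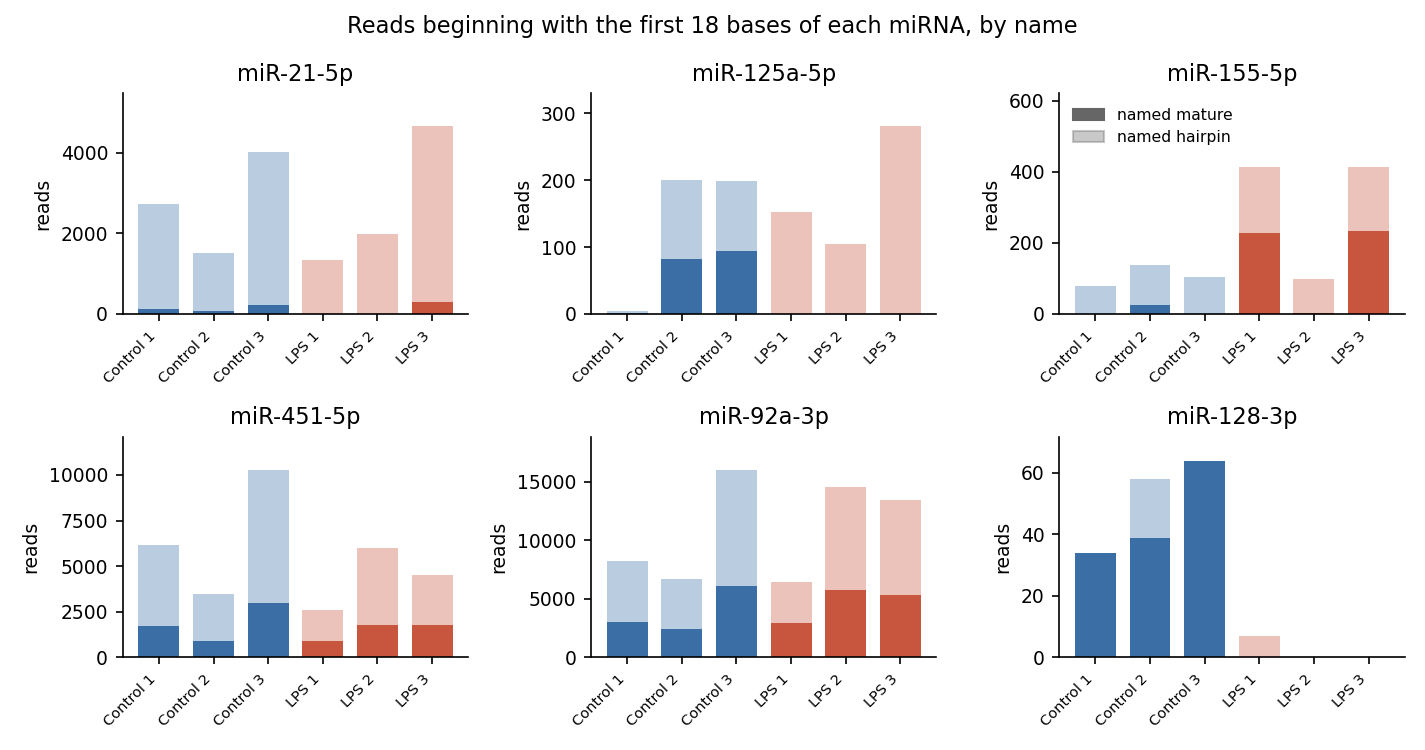
Reads beginning with the first 18 bases of 6 miRNAs in each library (vertical axis, reads; each panel has its own scale), with the part named mature in full colour and the part named hairpin in pale colour. miR-125a-5p has no mature-named reads in LPS but 104 to 280 reads in all, and miR-21-5p is mostly hairpin-named in each library.

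Counting by the first 18 bases gave 108 tested miRNAs and again 0 adjusted calls by edgeR, with 6 (5.56%) whose LPS libraries lay above Control and 15 (13.9%) below. Of the 85 tested in both counts, 73 had the same sign. The groups were apart in CPM in the same direction in both counts for 14 miRNAs. miR-30b-5p, miR-34a-5p, miR-100-5p, miR-122-5p and miR-222-3p were higher in LPS, though miR-34a-5p and miR-122-5p overlapped as a share of mature reads. Lower in LPS were miR-99a-5p, miR-126a-3p, miR-127-3p, miR-128-3p, miR-151-5p, miR-181c-5p, miR-204-5p, miR-411-5p and miR-486. miR-181a-5p (log2 0.33, SE 0.30) and miR-92a-3p (log2 0.24, SE 0.23) overlapped in that count. miR-451-5p, the red cell miRNA, went the other way and separated only by its start, at log2 -0.47 (SE 0.26). For miR-128-3p the fitted log2 fold change moved from -9.57 to -3.73 (SE 2.62), since 7 reads of a shorter tag were seen in LPS 1.

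**Figure D5:**
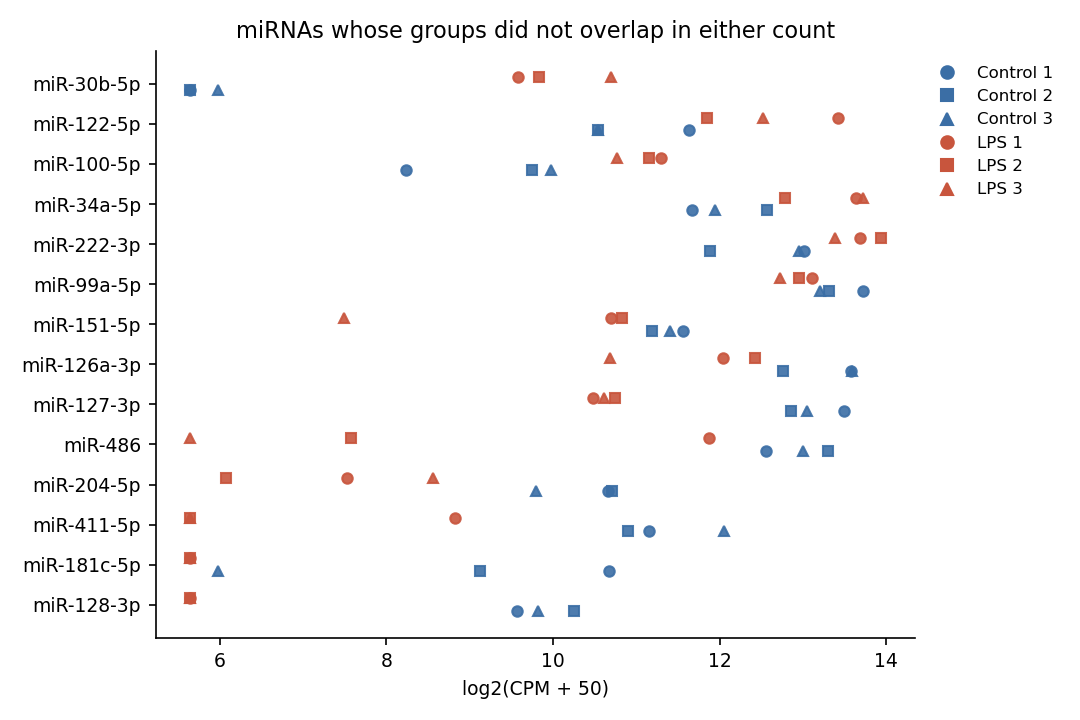
Level of the 14 miRNAs whose groups did not overlap under either way of counting, as log2 of CPM plus 50 under mature names (horizontal axis), with 1 mark per library, Control in blue and LPS in red. For each miRNA the 3 red marks lie on 1 side of the 3 blue marks. The gap is narrow for miR-99a-5p and for miR-34a-5p (6012 CPM in the highest Control library, 6977 CPM in the lowest LPS library). For miR-181c-5p it rests on 1 read in Control 3.

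Lists of miRNAs were described by counts and medians beside all 94, whose log2 fold changes were 50 positive and 44 negative with a median of 0.09. Of 22 miRNAs known to respond to LPS in macrophages, 15 had mature-named reads, 13 were tested and 0 passed. Of those tested 8 were positive and 5 negative, with a median of 0.47. By the first 18 bases 9 of 13 were positive with a median of 0.33, against -0.01 over all 108. miR-146a-5p, the induced brake on Toll-like receptor signalling, stood at 26850 ± 11313 CPM in Control against 22908 ± 9919 CPM with LPS (SD, n = 3 each). Its relative miR-146b-5p had 0, 31 and 2 Control reads against 0, 164 and 357 LPS reads. miR-24-3p, also on the list, stood at 17908 ± 2094 CPM in Control against 21494 ± 10058 CPM with LPS (SD, n = 3 each). No reads of the 6 libraries were named mature miR-125b-5p, miR-132-3p, miR-212-3p, miR-147, miR-155-3p, miR-187-3p or miR-29b-3p. Reads under their hairpin names were not looked up.

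Several members of that list were sparse under their mature names. miR-221-3p had 126, 32 and 56 Control reads against 143, 1 and 0 LPS reads. miR-223-3p, the neutrophil and monocyte miRNA, had 36, 11 and 113 in Control against 0, 0 and 219 with LPS. miR-27b-3p had 33, 0 and 144 in Control against 1, 1 and 292 with LPS. Without the library that held most of its mature-named LPS reads, the log2 fold change of each turned negative, from 0.56 to -7.30 for miR-221-3p without LPS 1, from 0.47 to -9.47 for miR-223-3p without LPS 3 and from 0.89 to -4.93 for miR-27b-3p without LPS 3. miR-27a-3p had 82, 30 and 174 Control reads against 131, 1 and 106 LPS reads and turned from 0.62 to -0.96 without LPS 1. Counted by the first 18 bases these miRNAs were less uneven. miR-221-3p then had 205, 368 and 0 LPS reads (log2 0.39, SE 1.43) and miR-223-3p had 122, 54 and 479 (log2 0.35, SE 1.04). miR-27a-3p and miR-27b-3p, which share that start, together had 409, 634 and 1156 (log2 0.33, SE 0.42). miR-99b-5p and let-7e-5p, in the same cluster as miR-125a, had log2 fold changes of -0.13 (SE 1.05) and -0.52 (SE 2.31).

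Among the other lists, cell type markers aside, the Dlk1-Dio3 cluster had the lowest median, -1.73. Of its 33 members 4 were tested, all 4 negative. By the first 18 bases 5 of 5 were negative with a median of -0.95. The summed level of the cluster was 14306, 10887 and 15129 CPM in Control against 1784, 3401 and 2752 CPM with LPS, with no overlap. miR-127-3p was the largest member. Without it the sum was 2794, 3499 and 6746 CPM in Control against 402, 1735 and 1238 CPM with LPS, again with no overlap. Of miRNAs that restrain inflammatory signalling, 7 of 11 tested were positive with a median of 0.26, and they summed to 187165 to 199765 CPM in Control against 237516 to 261345 CPM with LPS. Without miR-181a-5p, the largest member, that sum overlapped between groups. With it, the sum still overlapped as a share of mature reads, at 18.98% to 21.5% in Control and 20.75% to 23.97% in LPS. The miR-17-92 cluster and its paralogs had 2 positive and 2 negative with a median of 0.23, and by the first 18 bases 3 of 7 positive with a median of -0.56. The let-7 family had 8 positive and 5 negative of 13, with a median of 0.01. Its sum was 262510 to 309618 CPM in Control against 290560 to 300979 CPM with LPS. As a share of mature reads this family held 29.9%, 31.4% and 30.7% in Control and 25.4%, 26.3% and 29.0% in LPS. Every LPS library was lower on that scale. miRNAs abundant in blood and serum vesicles had 8 of 12 positive with a median of 0.33, and summed to 302591 to 391225 CPM in Control against 365575 to 501532 CPM with LPS. Pro-fibrotic miRNAs had 1 of 3 tested members positive with a median of -0.64, and anti-fibrotic ones, miR-204-5p among them, 1 of 3 with a median of -0.52. By the first 18 bases both lists turned, to 2 of 3 positive with a median of 0.0049 for the former and 4 of 6 with a median of 0.62 for the latter. The let-7 median was then -0.06, with 5 of 10 positive.

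Markers of other cell types were present as well, and those of lymphocytes summed to more than the myeloid list in each library. Without miR-181a-5p the lymphocyte sum was below the myeloid one in Control 1 (25776 against 40916 CPM) and LPS 1 (28998 against 42471 CPM). It stayed above it in the other libraries. Lymphocyte markers, of which 3 of 3 had reads, summed to 109525 to 148650 CPM in Control against 162701 to 187950 CPM with LPS. Without miR-181a-5p that sum overlapped between groups, at 25776 to 37118 CPM and 27994 to 33062 CPM. The full lymphocyte sum overlapped as a share of mature reads, at 12.46% to 16.002% in Control and 14.21% to 17.34% in LPS. Erythroid markers, with 3 of 4 seen under mature names, summed to 37566 to 48088 CPM in Control against 28730 to 45103 CPM with LPS. miR-451-5p was their largest member. Endothelial markers, which here meant miR-126a-3p with 22 reads of miR-126a-5p in LPS 3, summed to 6879 to 12255 CPM in Control against 1954 to 5434 CPM with LPS. Liver markers summed to 1437 to 3128 CPM in Control against 3716 to 11599 CPM with LPS, and overlapped without miR-122-5p. As a share of mature reads the liver sum also overlapped, at 0.142% to 0.356% in Control and 0.324% to 1.01% in LPS. Neural, mesenchymal and epithelial markers each summed to at most 2213 CPM under mature names in any of the 6 libraries. Few reads of the mesenchymal miR-143-3p (0.202%) and miR-199a-3p (6.35%) were named mature, and by their start they reached 3564 and 2913 CPM in Control 3. Under mature names striated muscle markers had no tested member and summed to at most 41.7 CPM in Control and 2850 CPM in LPS. By the first 18 bases 2 were tested. miR-133a-3p then had 601, 591 and 0 CPM in Control against 368, 0 and 381 CPM with LPS. miR-206-3p had 579 CPM in Control 3, 1618 CPM in LPS 3 and none elsewhere among the 6 libraries. The part of other cells or of serum in the differences above was not tested, and in bulk vesicle RNA fewer vesicles from a source and less RNA per vesicle cannot be told apart.

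No single miRNA could pass the test for tag length with 3 libraries against 3. The shares of the mature pool at 22 and 23 nt did not overlap between groups. Read-weighted mean tag length was compared for 38 miRNAs with at least 20 reads in each of the 6 libraries, and all had an adjusted p of 1 (exact permutation test). Only mature-named tags entered, and many length variants were named hairpin, so the names limit what this comparison can show. For 5 of the 38 the mean was the same in all 6 libraries, and for miR-652-3p 13.7% of the reads with its start were named mature. The largest differences were in miR-652-3p, at 21.0 nt in Control and 21.6 nt in LPS, miR-23a-3p (21.8 and 21.3 nt), miR-93-5p (22.999 and 22.57 nt), miR-320-3p (22.4 and 22.7 nt) and miR-99b-5p (21.9 and 21.6 nt). Over all mature reads, tags of 22 nt held 61.4%, 56.8% and 56.7% in Control and 48.5%, 48.5% and 53.2% in LPS. Tags of 23 nt held 21.5%, 26.4% and 25.1% in Control and 31.3%, 34.8% and 29.4% in LPS. miR-181a-5p and miR-423-3p had the most reads at 23 nt. Without both, 23 nt held 5.04%, 7.06% and 7.63% in Control and 8.996%, 9.11% and 8.87% in LPS, still apart. These 2 lengths were singled out after their values were seen and were not tested.

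Beyond mature miRNAs, 1257 named small RNAs were tested and 0 (0.0%) had an adjusted p under 0.05 by edgeR, where 39 had one under 0.05 before adjustment, and DESeq2 made 9 adjusted calls. Groups were apart upward in 58 (4.61%) and downward in 64 (5.09%). Of 66 piRNA names 48 were positive with a median log2 fold change of 1.10, against 0.16 over all 1257. Without LPS 3, 47 of 84 were positive with a median of 0.15. piR_001414 had 489, 363 and 478 Control reads against 1232, 489 and 40302 LPS reads. For piR_005633 these were 306, 241 and 114 against 412, 107 and 25241, so both had most of their reads in LPS 3.

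Another pair of piRNA names was high in LPS 1 and above Control in all 3 LPS libraries. piR_005858 had 0, 46 and 48 Control reads against 5300, 311 and 245 LPS reads (log2 6.42, SE 1.78, edgeR adjusted p = 0.445). piR_007046 had 27, 47 and 11 Control reads against 2216, 90 and 148 LPS reads (log2 5.04, SE 1.42, edgeR adjusted p = 0.445). Their most-read tags overlap in sequence, so they are not independent of each other.
piR_005858: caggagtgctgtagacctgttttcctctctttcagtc
piR_007046: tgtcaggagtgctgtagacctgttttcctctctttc
piR_005858 passed the threshold in 8 of 16 fits, among them the fit without LPS 3. It did not pass without LPS 1, the library with most of its reads. piR_001414, with most of its reads in LPS 3, also passed in 8 of 16.

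Several RNAs of the spliceosome lay lower in LPS. U4 snRNA, which pairs with U6 in the spliceosome, had 1766, 2902 and 577 Control reads against 77, 124 and 352 LPS reads (log2 -3.53, SE 1.18, edgeR adjusted p = 0.679). Its most-read tag is shown because it was absent from LPS.
U4 snRNA: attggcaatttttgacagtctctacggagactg
This tag had 1501, 2285 and 360 Control reads against 0, 0 and 0 LPS reads, and it was 1 of 95 distinct U4 tags. U1 snRNA, which recognises the 5′ splice site, had 17831, 9955 and 23084 Control reads against 5588, 6798 and 4091 LPS reads (log2 -1.57, SE 0.72, edgeR adjusted p = 1.00). U1 groups were apart in CPM but overlapped as a share of reads, at 0.247%, 0.183% and 0.281% in Control against 0.0601%, 0.195% and 0.0458% with LPS. U6 snRNA was lower with no overlap on either scale, at log2 -0.90 (SE 0.72), while U2 (-0.01, SE 0.92) and U5 (-0.88, SE 2.21) overlapped. Y RNA, a partner of the Ro protein that is common in vesicles, had 6633, 5833 and 13477 Control reads against 10351, 4923 and 29908 LPS reads (log2 0.80, SE 0.72). Vault RNA (0.67, SE 0.81), 7SK (-1.09, SE 1.13) and the signal recognition particle RNA (0.97, SE 0.86) also overlapped between groups.

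Of 17733 single tags tested, 0 (0.0%) passed by edgeR; unadjusted p-values under 0.05 numbered 1123, and DESeq2 called 342. Groups were apart upward in 252 (1.42%) and downward in 1431 (8.07%). Tags absent from all 3 LPS libraries numbered 2210 and tags absent from all 3 Control libraries 683. By class, the first kind numbered 1614 of 12084 rRNA tags and 319 of 3149 tRNA tags, beside 2210 of all 17733. The second kind numbered 499 and 94 in these classes, beside 683 of all. Other Rfam tags also had more of the first kind (253) than of the second (84). LPS 2 had the fewest assigned reads (3484099) and distinct tags (54745) of the 6 libraries. Among piRNA-named tags 201 of 243 were positive with LPS 3 and 135 of 298 without it. The tag with the smallest unadjusted p upward, a tRNA-named tag of 31 nt, had 17312 reads in LPS 3 and none elsewhere among the 6 libraries. The smallest downward belonged to a eukaryotic small subunit rRNA tag of 32 nt with 17, 9803 and 7085 reads in Control and none in LPS.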

How the data were processed

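The deposited files gave, per the file headers, the read count of each tag sequence, its assignment to a mature miRNA, miRNA hairpin, piRNA or Rfam family, and a score, which counts mismatches where the tag is a miRNA or piRNA and scores the match to an Rfam family. A deposited table gave whole-number read counts per miRNA and a further count column, exp, whose making no header describes and which was used only as an alternative. Bowtie2 and Rnor_6.0 are named in the submitters' processing notes, with no role or version. Trimming and the miRNA and Rfam releases are not stated in the labels or headers. No molecular identifiers are recorded, so a floor of 3 reads covers counting error only.

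Here each tag took the name with most reads over the 9 libraries. Of 485728 tags, 790 had more than 1 name, and 0.311% of reads were renamed. Mature tags with 0 mismatches were summed per miRNA, and all tags per name. Counts were fitted with edgeR 4.0.16 (R 4.3.3): TMM factors, filterByExpr defaults, 1 quasi-likelihood fit of 9 libraries with group as the term, contrast LPS minus Control, Benjamini-Hochberg adjustment, threshold 0.05. SE is the absolute log2 fold change over the square root of F. Class shares, length shares and mean tag lengths had two-sided exact permutation tests with Benjamini-Hochberg adjustment within each family. DESeq2 1.42.0 was an alternative. The code was tested on simulated data. Sequences and coordinates come from RefSeq tables of build GRCr8, where 229 of 252 miRNA names matched. The tags were not aligned to a genome.

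Members and lists were chosen with earlier results of these data known. Named miRNAs are the 8 of smallest unadjusted p in each direction, the 10 most abundant in Control, the tested LPS-responsive miRNAs and miR-204-5p. Other small RNAs are the 5 of smallest p per direction and the 3 with most reads per class; single tags are the 5 of smallest p per direction and the 2 with most reads per class; tag lengths are the 5 largest differences. The text describes some of each. miR-99a-5p, miR-100-5p, miR-17-5p, miR-151-5p and the Rfam families of known name (such as U1 and Y RNA) were added outside that rule, and counting by the first 18 bases was chosen after the data were seen. Alternatives were other scalings and tools, filters, names and left-out libraries. A piRNA-named item is not reported here.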

Additional observations from a re-analysis of the deposited data

How the results depend on the processing

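The count of 0 called miRNAs became 2 with the exp columns (let-7a-5p and miR-3596a), 1 with the names of the deposited table (let-7a-5p, whose tag the table calls miR-3596a in Control) and 0 to 1 when 1 library was left out, the 1 being miR-486 without LPS 1. For the named small RNAs, 0 became 9 with DESeq2, 1 with the names of each library file (let-7a-5p), 4 with no filter and 0 to 8 when 1 library was left out (8 without LPS 2). For single tags, 0 became 342 with DESeq2 and 0 to 8 when 1 library was left out (8 without the third astragaloside IV library). The cause was not tested for these changes, other than the names. The replicate numbers were not taken as pairs, since not every same-numbered pair had a correlation over 0.1 in its deviations from the group means: 0.116, -0.0384 and -0.0427 for miRNAs, 0.0354, 0.161 and 0.0538 for named small RNAs, and 0.146, 0.0632 and 0.0698 for single tags. With the replicate block, 1 miRNA was called (miR-486, log2 -7.02, edgeR adjusted p = 0.00305), and 0 named small RNAs and 0 tags.

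Of 49 log2 fold changes, 40 kept their sign under every alternative run. With hairpin tags added, the sign turned for miR-125a-5p (0.52), miR-21-5p (0.12), miR-99b-5p (0.077) and miR-146a-5p (0.064), and by the first 18 bases for miR-125a-5p (0.44) and miR-21-5p (0.0049), since more tags were counted. With the replicate block it turned for miR-221-3p (-2.30), miR-223-3p (-3.12) and miR-27b-3p (-0.45). Leaving out 1 library gave -7.30 to 1.03 for miR-221-3p, -0.66 to 0.18 for miR-99b-5p, -9.47 to 1.01 for miR-223-3p, -0.96 to 1.119 for miR-27a-3p, -4.93 to 2.05 for miR-27b-3p and -0.22 to 0.43 for miR-24-3p. Scaling by library totals moved the median log2 fold change of all tested miRNAs from 0.09 to -0.12 and that of named small RNAs from 0.16 to 0.33; DESeq2 size factors moved that of single tags from -0.34 to -0.21. With tRNA and rRNA left out of the total, the other Rfam share was lower in each LPS library (62.5% in Control, 43.1% in LPS and 59.4% in LPS without LPS 3; exact permutation p = 0.1, adjusted p = 0.4). Depth limits the rarer miRNAs, where 3 reads come to 39.9 to 134 CPM.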
